A study of Mus musculus with 249 samples.

Results

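The 10 libraries described here are the SYBR Gold test of a genome architecture mapping (GAM) collection, chosen because their column names begin with SG and their sample titles name that test. They were 10 of the 249 libraries in a single table, and the others were used only for reference. GAM cuts nuclei into thin cryosections, picks slices of nuclei (nuclear profiles) by laser microdissection, and sequences the DNA in each tube to see which parts of the genome it holds. The study asked how tubes with several profiles each could be prepared and how well they sample the genome.

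All 10 libraries came from 46C mouse embryonic stem (ES) cells of strain 129/Ola, a line with a Sox1-GFP reporter derived from the male line E14tg2a. They were cut at 220 nm with 4 profiles dissected into each cap, frozen overnight and amplified with the Sigma WGA4 kit over 25 PCR cycles, with no condition varied among them. By the study's account not every dissected cell slice crosses a nucleus, so that on average a tube held fewer nuclear slices than slices dissected, and their number in each tube is not known here. The titles call all 10 unstained, but the protocol text of these samples describes a bath in SYBR Gold, a fluorescent dye of nucleic acids. Whether these sections were stained is therefore not settled, and stained libraries of the same test were not analysed here. The reference libraries share the line and, by their titles, 4 profiles per cap, and they fall into 19 other groups that differ in stain, freezing, kit, reagents or PCR cycles. The 3 most similar groups were the unstained arms of tests of cresyl violet (10 libraries), propidium iodide (20) and eosin (18), all at 25 cycles. The titles of the propidium iodide test also name freezing. These groups belong to other experiments, so a difference from them cannot be told apart as one of experiment or protocol. Nothing in the labels says that the libraries came from separate cultures, so p-values measure only the spread between tubes.

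A thin slice through a nucleus catches some chromosomes and misses others, and where it catches one, it takes up stretches of chromatin that lay together in space. Loci close together on a chromosome are therefore found in the same slice more often than distant ones, which is the signal from which GAM builds contact maps. A male ES cell has a pair of each autosome but a single X and a single Y, so a random slice meets the sex chromosomes less often. Mouse centromeres lie at the very start of the chromosomes and are surrounded by major satellite, a long tandem repeat of which assemblies hold only fragments.

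The table gives 1 for a positive and 0 for any other window of 40 kb on the mm9 assembly, over 68162 windows. The reads behind a call are not in it, so depth is unknown and a 0 cannot be divided into DNA that was missing and DNA read too little. Only libraries that had passed the authors' quality control are in the table.

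One library stood apart from the other 9. SGB3 was positive in 4605 windows, the fewest of the 10, and only 49.3% of them had a positive window next to them, where the other 9 libraries lay between 73.3% and 89.2%. Of its positive autosomal windows, 50.4% stood alone, against 10.7% to 26.2% in the others. Such low shares of windows with a positive neighbour also occurred outside the 10, down to 31.3% among all other libraries and 47.9% in the eosin arm. Most measures of contiguity below are given with and without it.

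Coverage, the percent of all windows that were positive, varied widely across the 10 libraries. It was 6.76% in SGB3, 11.1% in SGD4, 11.7% in SGD3, 12.9% in SGG3, 14.7% in SGA3, 15.9% in SGC3, 18.3% in SGF4, 18.8% in SGE3, 24.0% in SGE4 and 26.9% in SGF3. The upper end was thus set by SGF3 and SGE4, and the other 8 lay below 19%. The mean was 16.1% ± 6.09 (SD, n = 10), or 17.2% ± 5.44 (n = 9) without SGB3. All other libraries averaged 18.3% ± 7.75, and the difference of -2.18 points was within the spread between libraries (permutation test, two-sided, p = 0.380, adjusted p = 0.585). The eosin arm had nearly the same coverage, 16.7% ± 6.43, at a difference of -0.54 points (permutation test, adjusted p = 0.845). Coverage differed by -7.14 points from that of the cresyl violet arm, 23.3% ± 5.18 (permutation test, adjusted p = 0.0485), but that call was lost when any of 8 libraries was left out, with adjusted p up to 0.0974. Against the propidium iodide arm, 22.1% ± 8.48, the difference of -5.95 points did not pass (permutation test, adjusted p = 0.162). These p-values were adjusted over 20 tests, 5 measures against 4 references each.

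**Figure D1:**
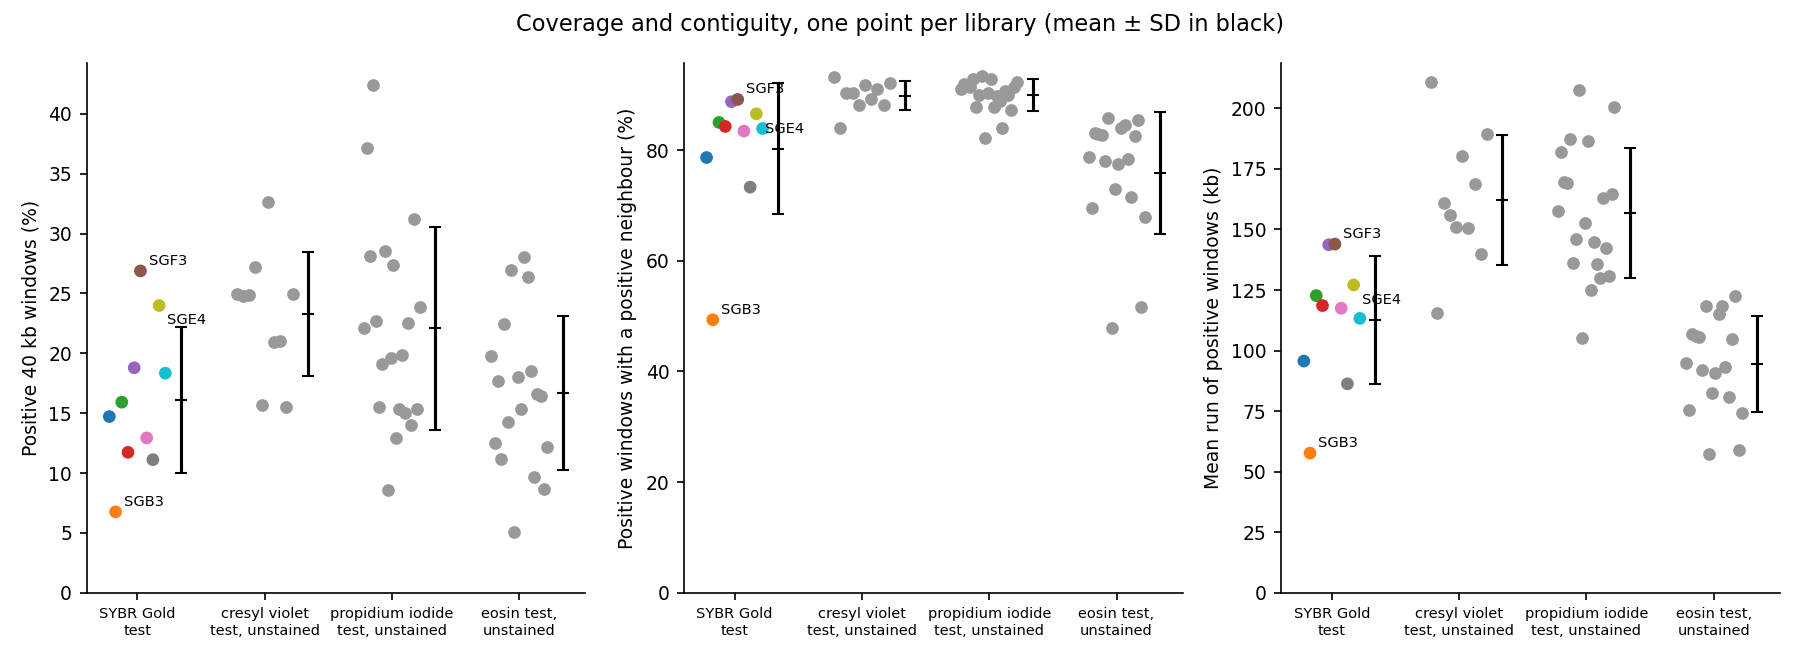
Each point is 1 library, with coverage (%), neighbour share (%) and mean run length (kb) on the vertical axes, for the SYBR Gold test in colours and 3 unstained arms in grey, and black bars give the mean ± SD. SGB3 has the lowest value of the 10 in each panel, and the neighbour shares of all 10 lie below the means of the cresyl violet and propidium iodide arms.

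Positive windows were gathered into runs, and the runs were shorter than in the cresyl violet and propidium iodide arms. The neighbour share, the percent of positive windows with a positive window beside them, averaged 80.2% ± 11.8 (SD, n = 10), or 83.7% ± 4.99 (n = 9) without SGB3. It was 49.3% in SGB3, 73.3% in SGD4, 78.7% in SGA3, 83.4% in SGG3, 83.9% in SGF4, 84.3% in SGD3, 85.0% in SGC3, 86.6% in SGE4, 88.8% in SGE3 and 89.2% in SGF3. All 10 lay below the mean of the cresyl violet arm, 89.9% ± 2.66, a difference of -9.63 points (permutation test, adjusted p = 0.00465). All 10 also lay below the mean of the propidium iodide arm, 89.9% ± 2.90, a difference of -9.65 points (permutation test, adjusted p = 0.00220). Without SGB3 the differences shrank to -6.19 and -6.22 points, and both still passed. The eosin arm averaged 75.9% ± 11.0 and all other libraries 81.7% ± 11.7, and neither differed beyond the spread (permutation test, adjusted p = 0.585 and 0.845). Against all other libraries, the sign of the difference turned from -1.43 to 2.00 points once SGB3 was left out.

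The mean run of positive autosomal windows was 113 kb ± 26.5 (SD, n = 10), from 57.7 kb in SGB3 and 86.3 kb in SGD4 to 143.7 kb in SGE3 and 144 kb in SGF3, and it was 119 kb ± 19.2 (n = 9) without SGB3. It differed by -49.7 kb from the cresyl violet arm, 162 kb ± 26.9, and by -44.2 kb from the propidium iodide arm, 157 kb ± 26.96 (permutation test, adjusted p = 0.00293 for both). Without SGB3 these differences were -43.6 and -38.1 kb (permutation test, adjusted p = 0.00465 for both). Both calls were lost when a library was summarised by its median run in place of its mean run, at differences of -16 and -10 kb (permutation test, adjusted p = 0.314 and 0.241). The 18 eosin libraries had shorter runs, 94.3 kb ± 19.8, a difference of 18.3 kb (permutation test, adjusted p = 0.160). It passed only without SGB3, at 24.4 kb (permutation test, adjusted p = 0.0215). The eosin arm was kept whole, although its replicates 8 and 17 had mean runs of 57.2 and 58.9 kb, close to SGB3. All other libraries averaged 121 kb ± 35.8, and the difference of -8.54 kb did not pass (permutation test, adjusted p = 0.652). Without SGB3 it was -2.44 kb (permutation test, adjusted p = 0.845). The cause of the differences between arms was not tested. Across the 10 libraries, those that covered more also had higher neighbour shares (Pearson's r = 0.73, permutation adjusted p = 0.00911; Spearman's rho = 0.88, permutation adjusted p = 0.00328). The relation was r = 0.83 without SGF3 and SGE4, the libraries farthest from the median coverage, and r = 0.70 without SGB3. Neighbours by chance also grow with coverage, and their part in the relation was not tested.

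Windows positive together reached far beyond adjacent windows. In autosomes, the window 40 kb downstream of a positive one was positive in 62.0% ± 12.4 of cases (SD, n = 10), where 17.2% ± 6.50 of all autosomal windows were positive. At 200 kb the figure was 51.4% ± 11.9, at 1 Mb 38.3% ± 10.4, at 4 Mb 28.2% ± 8.65 and at 10 Mb 24.7% ± 7.89. Above each library's own autosomal percent, the excess fell from 44.8 points at 40 kb to 21.1 points at 1 Mb and 7.52 points at 10 Mb. That baseline takes no account of chromosomes, so uneven sampling of chromosomes within a library adds to the excess at every distance. How much it adds was not tested. Without SGB3, co-detection was 65.5% at 40 kb, 54.7% at 200 kb, 41.1% at 1 Mb, 30.2% at 4 Mb and 26.6% at 10 Mb. In SGB3 the excess at 1 Mb was 5.89 points, whereas the other 9 ranged from 19.01 (SGA3) to 26.5 (SGC3). The mean excess at 1 Mb was 21.1 points ± 6.12 and did not differ beyond the spread from the 19.8 points ± 5.89 of the others (permutation test, p = 0.493, adjusted p = 0.658). Without SGB3 it was 22.8 points ± 3.18 (n = 9), and the difference from the others grew from 1.31 to 2.99 points but did not pass (permutation test, p = 0.131, adjusted p = 0.292). Against the cresyl violet and propidium iodide arms the excess differed by -3.06 and -2.14 points (permutation test, adjusted p = 0.556 for both), and by -1.37 and -0.45 points without SGB3 (adjusted p = 0.729 and 0.845). Against the eosin arm, 17.4 points ± 4.08, the excess was 3.70 points higher with SGB3 (permutation test, adjusted p = 0.162) and 5.39 points higher without it (adjusted p = 0.00824). All eosin libraries were kept in both, the lowest at 9.80 points.

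**Figure D2:**
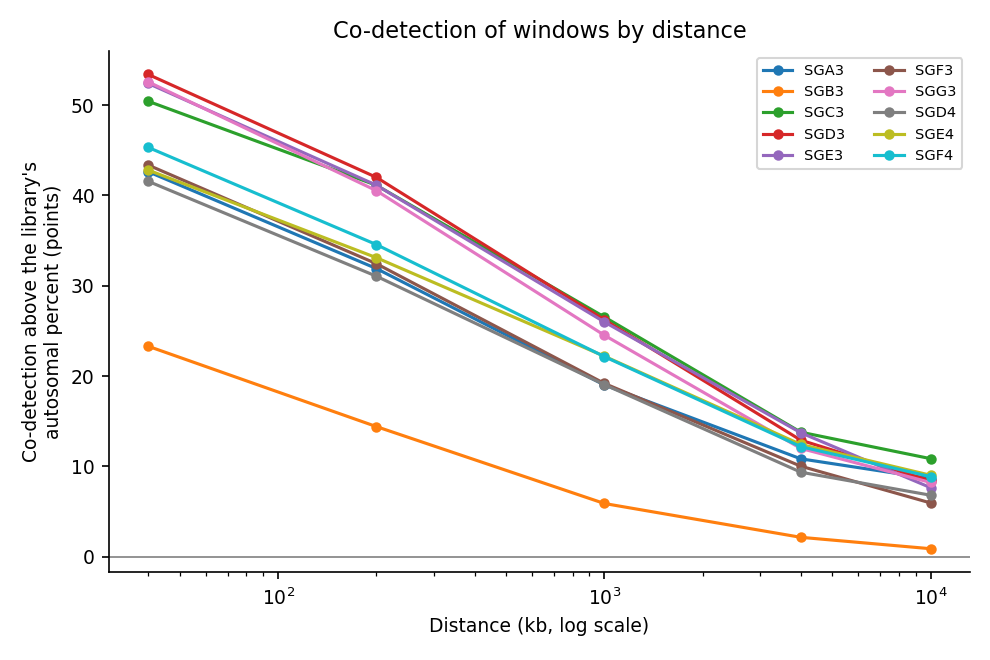
The horizontal axis is the distance between windows (kb, log scale) and the vertical axis the percent of positive windows with a positive window at that distance, minus the library's autosomal percent (points), with 1 line per library. SGB3 runs below the other 9 at every distance, and all 10 are still above 0 at 10 Mb, where SGB3 is at 0.88 points. The autosomal percent subtracted is that of the whole library, not of each chromosome.

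The chromosomes were sampled very unevenly within a library, and which ones were missed changed from library to library. SGD3 was positive in 0.37% of the windows of chromosome 10, 0.70% of chromosome 2 and 0.77% of chromosome 9, and in 31.2% of chromosome 1 and 33.1% of chromosome 15. SGG3 reached 0.37% of chromosome 16, 0.63% of chromosome 12 and 0.80% of chromosome 14, against 28.98% of chromosome 15 and 26.9% of chromosome 17. SGA3 reached 0.55% of chromosome 8 and 32.9% of chromosome 12, SGE3 1.46% of chromosome 1 and 39.4% of chromosome 11, and SGF4 1.36% of chromosome 5 and 36.4% of chromosome 13. At the other end, SGF3 was positive in 46.9% of chromosome 1 and SGE4 in 48.7% of chromosome 11.

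Of the 190 pairs of a library and an autosome, 15 lay below 0.25 times the autosomal percent of their library. That is 7.89% of pairs, against 9.23% in the other libraries. SGD3 and SGG3 held 4 of the 15 each, while SGB3 and SGF3 held none. Pairs above 2 times the autosomal percent numbered 7 (3.68%, against 4.84% in the others), and 3 of them were chromosome 15, in SGC3, SGD3 and SGG3. The coefficient of variation over the 19 autosomes ranged from 34.05% in SGF3 and 36.8% in SGB3 to 67.8% in SGG3 and 79.7% in SGD3. Its mean, 54.4% ± 13.2 (SD, n = 10), was close to the 55.5% ± 17.4 of the other libraries (permutation test, p = 0.845, adjusted p = 0.845), and the sign of this difference varied with the setting.

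**Figure D3:**
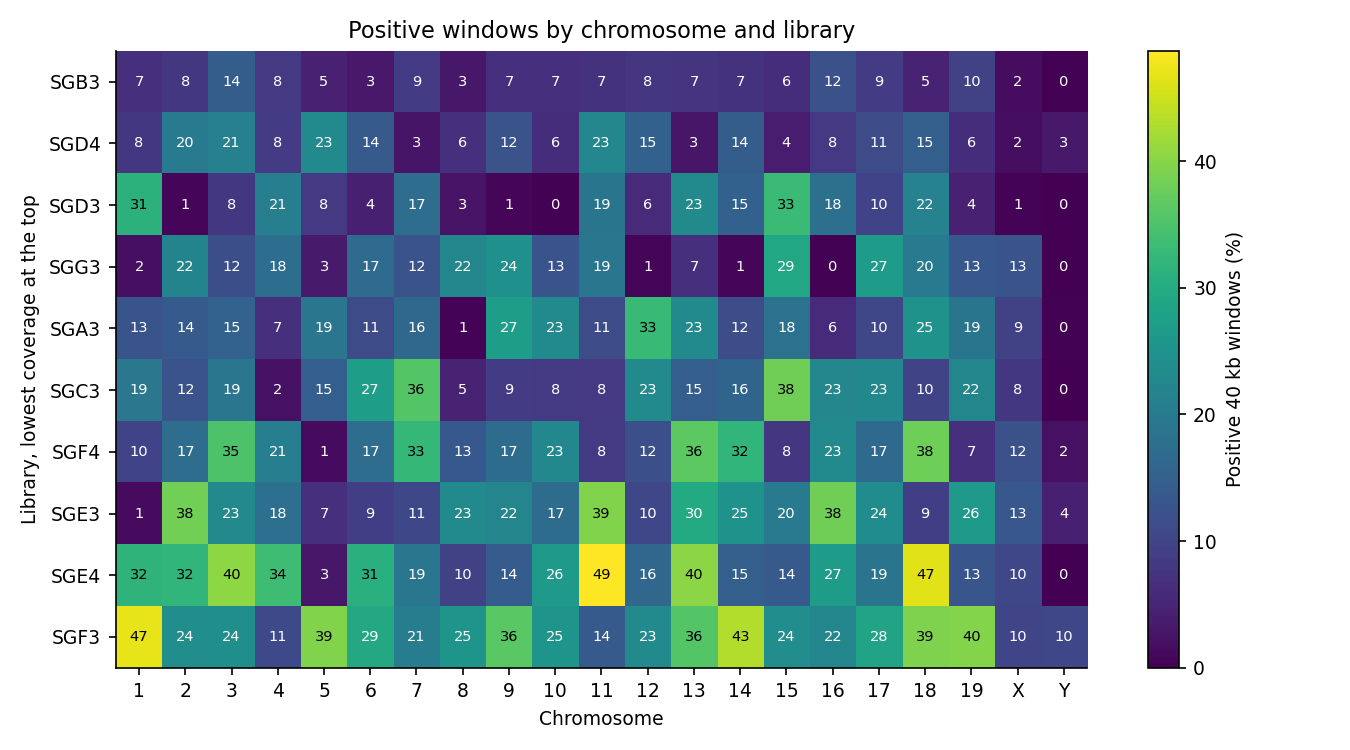
Rows are the 10 libraries from the lowest coverage at the top, columns the 19 autosomes, X and Y, and the colour and number in each cell give the percent of that chromosome's windows that were positive. Near-empty cells lie in different columns in different rows, such as chromosome 10 in SGD3 and chromosome 16 in SGG3.

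No autosome was high or low throughout the 10 libraries. When each chromosome was compared with the other autosomes of the same library, 9.52% of the 21 chromosomes were called (exact sign-flip permutation test, 2 called), and these were X and Y. X differed from the other autosomes by -9.23 points (SE 1.64, n = 10), lower in 10 of 10 libraries (exact permutation p = 0.00195, the smallest that the test can give with 10 libraries, adjusted p = 0.0205). Y differed by -15.2 points (SE 1.65), also in 10 of 10 (exact permutation p = 0.00195, adjusted p = 0.0205). Chromosome 8 was the lowest autosome, at -6.45 points (SE 2.64) and above them in 2 of 10 libraries, but it did not pass (exact permutation p = 0.0391, adjusted p = 0.273). Chromosome 18 was the highest, 5.90 points above (SE 3.38) and higher in 7 of 10 (exact permutation p = 0.121, adjusted p = 0.458). Set against the same differences in the other libraries, 0% of 21 chromosomes were called (permutation test, lowest adjusted p = 0.885, 0 at an unadjusted p under 0.05).

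X was positive in 7.98% ± 4.86 of its windows (SD, n = 10), which was 0.45 ± 0.27 times the autosomal percent. The ratio was 0.04 in SGD3, 0.15 in SGD4, 0.21 in SGB3, 0.35 in SGF3, 0.40 in SGE4, 0.46 in SGC3, 0.61 in SGA3, 0.62 in SGF4, 0.67 in SGE3 and 0.94 in SGG3, so that X was almost missed in one library and sampled nearly like an autosome in another. Y had a positive window in 6 of 10 libraries, with the highest level, 10.3% of its windows, in SGF3. Of the 398 Y windows, 331 were positive in none of the 249 libraries. A further filter kept only windows positive in at least 25 of the 249 libraries, 46 of them on Y, and so selected on detection itself. Under it neither X, at -7.76 points, nor Y, at -2.98 points, passed (exact permutation adjusted p = 0.0820 and 0.866). The unadjusted exact permutation p for X was 0.00391.

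Together the 10 libraries detected 50542 of the 61816 autosomal windows, or 81.8%. Of the windows, 28.8% were positive in 1 library, 27.5% in 2, 16.5% in 3, 6.64% in 4 and 1.83% in 5, and 18.2% in none. The windows missed by all 10 numbered 11274, of which 9097 were positive elsewhere in the collection and 2177 in none of the 249 libraries. Averaged over all choices of libraries, a single library detected 17.2% of autosomal windows, 3 detected 42.7%, 5 detected 59.7% and 9 detected 78.9%. Any 10 libraries detected on average 90.9% in the cresyl violet arm, 90.1% in the propidium iodide arm and 82.5% in the eosin arm. The start sites of 19360 of 22367 protein-coding genes on the assembled chromosomes (86.6%) lay in a window detected by at least 1 of the 10. Pairs of libraries shared few windows beyond their coverage. The correlation of calls over autosomal windows had a median of 0.018 over the 45 pairs, from -0.022 (SGD3 and SGE3) to 0.061 (SGD3 and SGE4), and its median with the other libraries was 0.017.

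**Figure D4:**
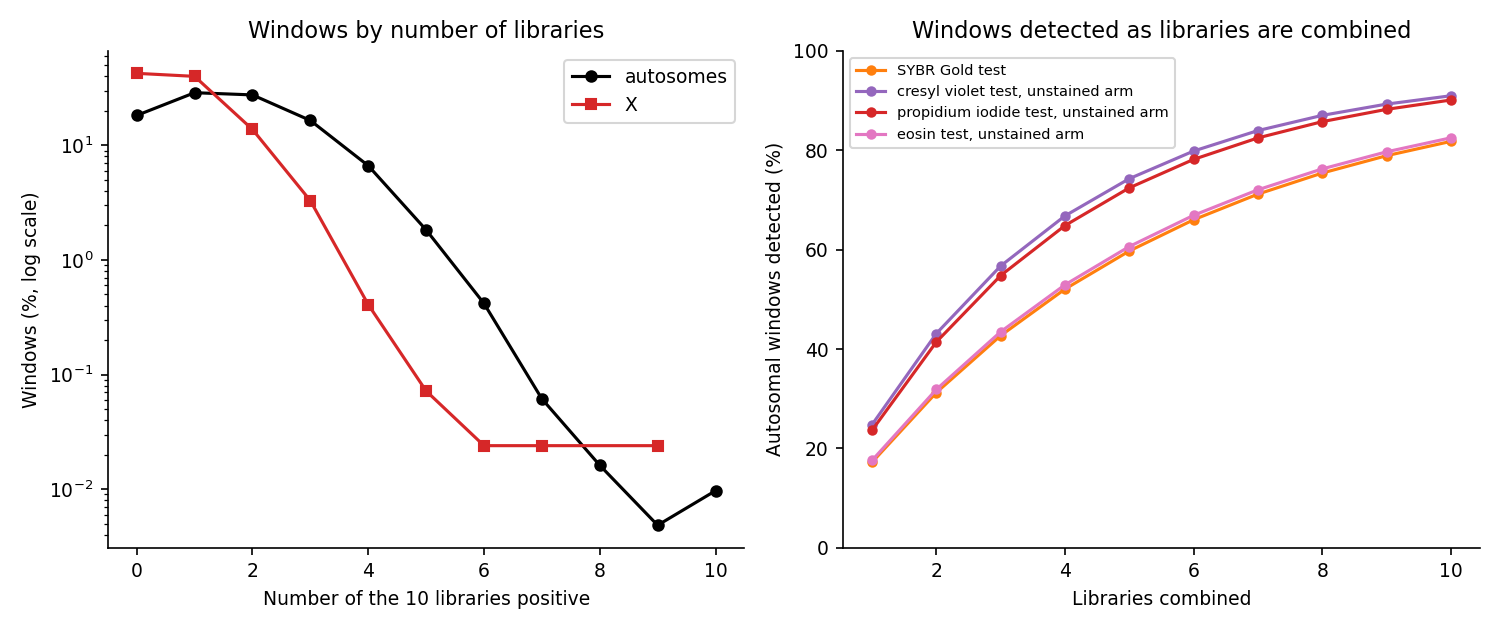
Left, percent of windows (log scale) by the number of the 10 libraries in which they were positive, for autosomes (black) and X (red), with counts of 0 not drawn. Right, percent of autosomal windows detected as 1 to 10 libraries are combined, averaged over all choices, where the SYBR Gold test ends at 81.8%.

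The fall in the number of windows with each further library broke off at the end, since 3 autosomal windows were positive in 9 libraries but 6 in all 10. These 6 were also positive in at least 178 of the other libraries. They were chr2:98480001-98520000 with the predicted genes Gm10800 and Gm10801 (all other libraries), chr9:3000001-3040000 with a cluster of 12 predicted genes (237 others), chr9:35080001-35120000 with Gm5614 and Rpusd4, which encodes a mitochondrial pseudouridine synthase (235), chr11:3040001-3080000 within Sfi1, a centrosome protein gene (232), chr12:3080001-3120000 with no protein-coding gene (201) and chr2:181640001-181680000, also with none (178). The mitochondrial window was likewise positive in all 10.

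Their sequences on mm9 are shown because 4 of the 6 held pieces of the same repeat. In chr9:3000001-3040000, 92.9% of all 20-base words occurred more than once in the window, more than in 99.97% of autosomal windows, for which the median was 1.81%. Its most frequent word stood in 133 copies, most often 234 bases apart, which is the unit length known for mouse major satellite. One unit is printed first, with that word in capitals. In the next 3 sequences, from windows far from chromosome 9's start, capitals mark bases inside 20-base words that also occur, on either strand, in that chromosome 9 window. In the last 2, from windows without such words, capitals mark the window's own most frequent 20-base word. All are plus strand, 5′ to 3′.
Unit at chr9:3000360-3000593: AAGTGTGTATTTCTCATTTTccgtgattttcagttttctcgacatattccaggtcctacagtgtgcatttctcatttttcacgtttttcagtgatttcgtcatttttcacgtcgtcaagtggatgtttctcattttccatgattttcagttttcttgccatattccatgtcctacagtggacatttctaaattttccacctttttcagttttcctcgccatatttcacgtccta
Piece at chr2:98507039-98507158: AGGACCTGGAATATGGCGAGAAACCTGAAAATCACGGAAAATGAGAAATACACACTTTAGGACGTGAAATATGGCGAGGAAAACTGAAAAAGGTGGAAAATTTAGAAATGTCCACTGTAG
Piece at chr9:35112881-35113000: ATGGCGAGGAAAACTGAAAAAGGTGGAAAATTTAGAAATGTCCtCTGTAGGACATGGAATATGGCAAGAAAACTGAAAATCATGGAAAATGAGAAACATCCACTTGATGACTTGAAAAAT
Piece at chr12:3109872-3109991: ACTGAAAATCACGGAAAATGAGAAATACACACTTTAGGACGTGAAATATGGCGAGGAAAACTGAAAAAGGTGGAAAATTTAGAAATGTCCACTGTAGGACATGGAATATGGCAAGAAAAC
Repeat in Sfi1 at chr11:3051794-3051943: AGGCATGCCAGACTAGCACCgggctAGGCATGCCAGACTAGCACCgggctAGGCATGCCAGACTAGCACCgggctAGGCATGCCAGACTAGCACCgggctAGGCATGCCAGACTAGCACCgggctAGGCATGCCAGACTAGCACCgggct
Repeat at chr2:181663337-181663396: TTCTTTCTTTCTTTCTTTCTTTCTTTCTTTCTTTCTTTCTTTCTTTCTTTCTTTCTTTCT

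The shared words numbered 864 in the first chromosome 2 window, 190 in the second chromosome 9 window and 213 in the chromosome 12 window. The Sfi1 window repeated a word of its own 15 times, mostly at a spacing of 25 bases, with 6 of the copies in the stretch shown, and the window at the end of chromosome 2 held its most frequent word 55 times, mostly 4 bases apart. A search of the autosomes, chosen after these values were seen, found at least 100 shared words in 8 windows besides the one that defined them. Of these, 3 were positive in all 10 libraries and chr11:3000001-3040000, which also overlaps Sfi1, in 9 (209 others). The other 4 were positive in 1 or 2 libraries, among them chr9:3040001-3080000, which shared 10487 words and was positive in 2 of the 10 and in 40 others. The 57 windows positive in 7 or more libraries had a median of 3.00% repeated 20-base words against 1.81% over all 59855 autosomal windows with enough sequence. How reads from repeats were placed was not tested.

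The 3 autosomal windows positive in 9 libraries were also frequent elsewhere, in 209 to 233 of the others. No window differed from the rest of the collection after adjustment. Fisher's exact test called 0% of 63543 windows at an adjusted p under 0.05 (lowest adjusted p = 1), and a Cochran-Mantel-Haenszel test stratified by coverage also called 0. At an unadjusted p under 0.05 there were 852 of 63543 windows by Fisher's test and 870 of 63542 by the stratified test. Both are smaller shares than 0.05. Of the 852, 822 were more often positive in the SYBR Gold test. The test itself shapes that split, since 0 of 10 against 23.0% of the others gives p = 0.123 (as for the Sox2 window), and a lower share in the 10 can rarely reach the threshold. The 4 lowest p-values came from 2 neighbourhoods. On chromosome 3, chr3:144280001-144320000 was positive in 8 of the 10 libraries and 44 others (p = 7.26e-05), and chr3:144400001-144440000 with Clca1, a secreted regulator of chloride conductance, in 8 and 49 (p = 0.000153). On chromosome 6, chr6:82080001-82120000 was positive in 8 and 44 (p = 7.26e-05), and chr6:82440001-82480000 in Tacr1, the substance P receptor gene, in 8 and 50 (p = 0.000175). After adjustment, p was 1 for each. The first window named on each chromosome was positive in the same 8 libraries, all but SGD3 and SGD4.

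Positive windows were more frequent where GC content was high. The decile of autosomal windows richest in GC (mean 49.9%) was positive in 21.7% and the poorest decile (mean 36.2%) in 13.5%. The difference of 8.17 points (SE 1.40, n = 10) was above 0 in 10 of 10 libraries (exact sign-flip permutation p = 0.00195, adjusted p = 0.00391). It was 0.84 in SGF4, 2.45 in SGD3, 5.17 in SGB3, 7.77 in SGA3, 7.99 in SGD4, 8.71 in SGE4, 10.1 in SGE3, 10.3 in SGC3, 14.1 in SGG3 and 14.3 in SGF3. SGG3 rose from 7.72% in the poorest decile to 21.8% in the richest. SGD3 went from 11.4% in the poorest to 15.1% in the ninth and 13.8% in the richest, and SGF4 from 19.1% to 22.5% in the eighth and 19.95% in the richest, so that in both the difference between the end deciles is smaller than the rise within the range. The other libraries averaged 4.72 points, and the difference of 3.45 points between the sets did not pass after adjustment over 4 contrasts (permutation test, p = 0.0286, adjusted p = 0.114).

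Windows overlapping a protein-coding gene were positive in 18.7% of cases and those without one in 15.5%. The difference was 3.23 points (SE 0.38, n = 10), from 1.38 in SGF4 to 4.59 in SGE3, and above 0 in 10 of 10 (exact permutation p = 0.00195, adjusted p = 0.00391). Gene windows were also richer in GC, at 43.2% against 40.3%. Within deciles of GC content the gene difference was 0.31 points and no longer passed (exact permutation adjusted p = 0.505). In the other libraries the gene difference was 3.29 points, and the sets did not differ beyond the spread (permutation test, p = 0.922, adjusted p = 0.922).

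Neither chromosome end stood out. The first 5 Mb after the unassembled 3 Mb, next to the centromere, were 1.54 points above the rest of the autosomes (SE 1.69, higher in 7 of 10, exact permutation p = 0.379, adjusted p = 0.505). Single libraries went far in both directions, from -7.71 in SGC3 and -5.47 in SGF3 to 7.96 in SGD3 and 8.74 in SGG3. The last 5 Mb, next to the telomere, were 0.78 points above the rest (SE 1.32, higher in 5 of 10, exact permutation p = 0.574, adjusted p = 0.574), from -4.33 in SGD3 to 8.21 in SGE3.

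**Figure D5:**
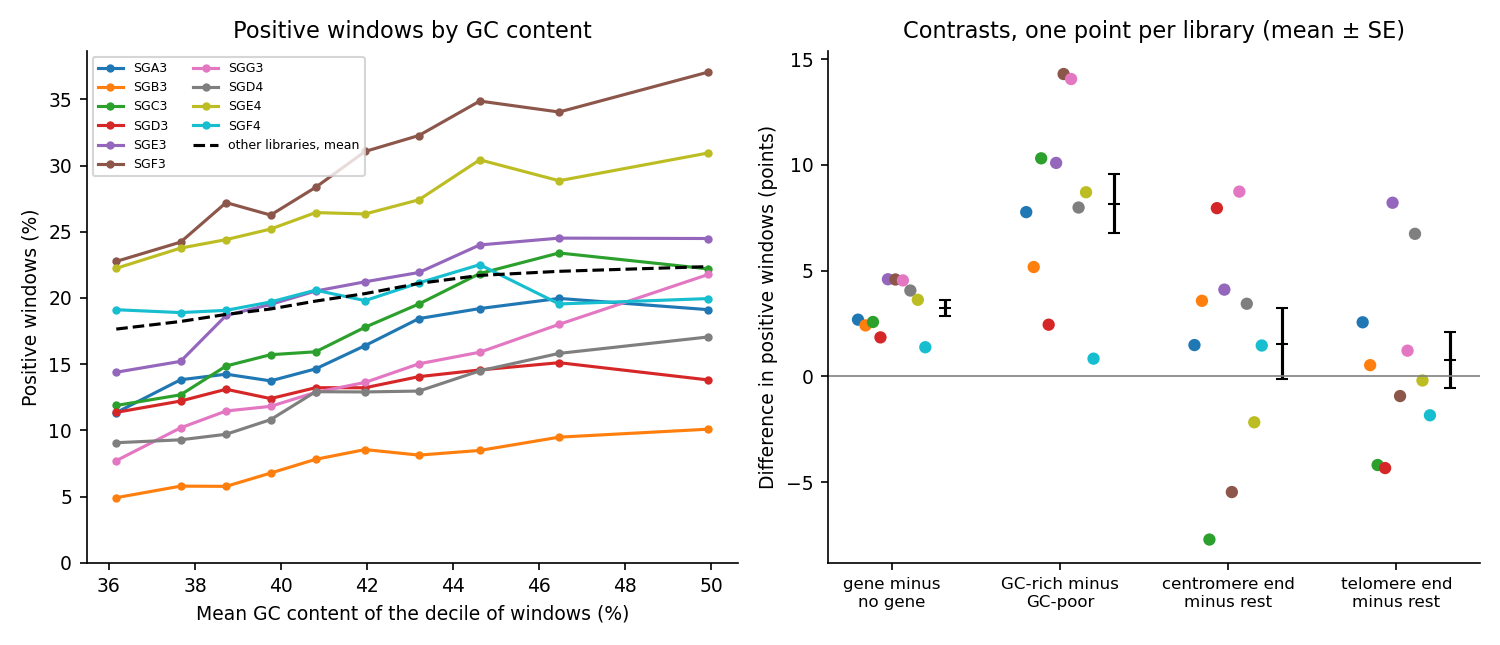
Left, percent of positive windows in deciles of autosomal windows by mean GC content (%), 1 line per library and a dashed line for the mean of the other libraries. Right, the 4 differences in percent of positive windows (points), 1 point per library with the mean ± SE in black, where the gene and GC contrasts are above 0 in all 10 libraries and the chromosome ends scatter around 0.

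Single loci were caught in few of the 10 libraries. A list of pluripotency regulators was looked up by the window of the gene start, and 11 of its 12 genes were found. Of these 11, 7 were positive in at least 1 library, and the median was 1 library. Over all 21418 protein-coding genes on autosomes, 18738 were positive in at least 1 library, with a median of 2, and the list was not tested against them. Tbx3, a T-box factor of naive ES cells, was positive in 4 libraries, within runs of 240 kb in SGA3, 80 kb in SGC3, 680 kb in SGD3 and 240 kb in SGF3. Pou5f1, which encodes OCT4, was positive in SGA3, SGB3 and SGF4, in runs of 160, 120 and 400 kb. Esrrb, a nuclear receptor of the same network, was positive in SGA3, SGF3 and SGF4. Zfp42 and Prdm14, a zinc finger marker and a germline and pluripotency regulator, were positive in 2 libraries each. Klf2 and Tet1, which encodes a methylcytosine dioxygenase, were positive in SGF3 alone.

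Sox2, Nanog, Klf4 and Dppa3 were positive in none of the 10, and 0 of 10 allows a share of up to 30% of such libraries, for counting error only. The Nanog window was positive in 82 others (34.3%), the highest share among the listed genes, and its Fisher p of 0.0332 was 1 after adjustment. Nanog and Dppa3 lie within 80 kb of each other, so their calls are not independent. Tfcp2l1 and Sox1 were not analysed here.

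The 4 housekeeping genes were positive in 2 to 4 libraries each. Eef1a1, a translation elongation factor, was positive in SGA3, SGF3, SGD4 and SGE4, and Rplp0, a ribosomal protein gene, in SGA3, SGF3 and SGG3. Actb, cytoplasmic actin, was positive in SGC3, SGF3 and SGG3, where its run spanned 920 kb in SGF3, and Gapdh, a glycolytic enzyme gene, in SGC3 and SGD4. Of the Hox genes, which pattern the body axis, Hoxb1 was positive in SGF3 and SGE4, Hoxc4 in SGG3, and Hoxd1 in SGE4 and SGF4. Of the neural genes, Pax6, an eye and forebrain factor, was positive in SGC3, within a run of 1000 kb, and in SGE3, and Nes, which encodes nestin, in SGG3. On X, Xist, the RNA of X inactivation, was positive in SGA3 and SGG3, Rlim, an activator of Xist, in SGG3, and Dmd in SGF4. None of the listed windows differed from the other libraries after adjustment over all windows.

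Very long genes show the patchwork inside a library, since each spans many windows. Lrp1b, a lipoprotein receptor gene, had 71.2% of its windows positive in SGE3 and 44.2% in SGG3, and at most 7.69% in any other library. Csmd1 was positive over 59.5% in SGE3, 40.5% in SGG3, 28.6% in SGF4 and 14.3% in SGF3, and over 2.38% or less in the remaining 6, although its start window was positive in none. Cntnap2, a neurexin family gene, reached 50.9% in SGD4, 47.4% in SGC3, 33.3% in SGF4 and 22.8% in SGA3. Dlg2, a postsynaptic scaffold gene, reached 48.98% in SGF4 and 30.6% in SGG3. Dmd, the dystrophin gene on X, reached 48.3% in SGF4, one of the libraries with most of X, and 24.1% in SGA3. No library held any of these 5 genes whole.

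The longest unbroken run of a library ranged from 720 kb in SGB3 to 2760 kb in SGE4, with 1704 kb ± 608 on average (SD, n = 10). The SGE4 run, chr3:56920001-59680000, held 24 gene starts, among them Wwtr1, which encodes the Hippo pathway effector TAZ, and a row of purinergic receptor genes including P2ry12. In SGF3 it was chr10:73600001-75880000 (2280 kb, 35 gene starts, with the chromatin remodeller gene Smarcb1), and in SGD3 chr1:6080001-8200000 (2120 kb, 4 gene starts, with the autophagy gene Rb1cc1). In SGG3 it was chr4:133000001-134360000, shorter at 1360 kb but with 41 gene starts, including the chromatin remodeller gene Arid1a and Lin28a, an RNA-binding pluripotency factor. The SGC3 run, chr7:105240001-107040000, held 29 gene starts, with Wnt11 among them. For 9 of the 10 libraries the whole run was positive in no other of the 10, and the SGB3 run, chr16:16440001-17160000 with 14 gene starts, was whole in 1 other.

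The library names end in 3 or 4, a number that the labels do not explain. The 3 libraries ending in 4 had a coverage of 17.8% ± 6.45 and the 7 ending in 3 had 15.4% ± 6.30, a difference of 2.43 points within the spread (exact permutation p = 0.6 over 120 arrangements, the smallest possible being 0.00833). Their neighbour shares, 81.3% ± 7.01 and 79.8% ± 13.9, also did not differ beyond it (exact permutation p = 0.917).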

How the data were processed

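GAM libraries of mouse ES cells were analysed from the table of calls that the authors deposited, 0 or 1 per library and 40 kb window. Per the study's methods and the labels, the authors aligned reads to mm9 with Bowtie2 (version 2.1 in the submitters' processing notes), removed duplicates and called windows with GAMtools at a fixed number of reads. All 249 columns matched a label. GC content and sequences were read from NCBIM37 and genes from GENCODE vM1. The files' 22 chromosome lengths equalled those of NCBIM37.

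Groups followed the titles. Libraries were compared by permutation (100000 resamples), chromosomes and window classes by exact sign-flip permutation, and windows positive in at least 3 libraries by Fisher's exact test, with Benjamini-Hochberg adjustment and a threshold of 0.05. Windows with over 10% N were left out of GC classes. The libraries and gene lists were chosen with earlier results of these data known. Named loci were listed genes, windows positive in all 10 libraries, the 4 lowest Fisher p-values and each library's longest run. Some listed genes are not reported here. Alternatives were other references, summaries, definitions and windows, and each library left out. Scripts, tested on simulated data, used Python 3.11.15, numpy 2.4.6 and scipy 1.17.1.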

Additional observations from a re-analysis of the deposited data

Results flagged for a closer look

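Among 30 measures of the 10 libraries, 2 had 1 value farther from the rest than Dixon's test allows at 95% and both came from SGB3. Its neighbour share was 49.3%, where the next lowest library had 73.3%, and the gap was 0.60 of the whole range. Its excess co-detection at 1 Mb was 5.89 points, where the next lowest had 19.01 points, at a gap of 0.64 of the range. Chance alone exceeds the critical value in about 1 of 20 groups, so among 30 measures some flags can come by chance. Both flagged measures describe the contiguity of the same library, so they are not independent.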

How the results depend on the processing

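No paired analysis was possible because no label ties a library to one of another group. Leaving out each library in turn moved the difference in coverage from the cresyl violet arm between -8.33 and -6.10 points (adjusted p from 0.0125 to 0.0974), and on autosomes alone it was -7.57 points (adjusted p = 0.0556), past the threshold no longer. The median run gave -16 kb against the cresyl violet and -10 kb against the propidium iodide arm. With windows positive in at least 25 libraries, 0 chromosomes were called in place of 2. The gene contrast within GC deciles was 0.31 points. Against all other libraries, the coefficient of variation over autosomes turned to 0.59 points without the full collection and to 1.95 points by medians, and ran from -3.90 to 1.17 points as libraries were left out. The neighbour share ran from -2.42 to 2.00 points there, the telomere contrast from -0.048 to 1.35, and the coverage by name number from -0.66 to 5.78. Against the eosin arm, the coverage difference ran from -1.73 to 0.50 points and the difference in variation over autosomes from -1.70 to 3.37 points. The window test called 0 windows in all 14 alternatives. The other alternatives kept direction and side of the threshold, except that 3 values against the eosin arm came to pass it, namely mean run without SGB3 (24.4 kb) and excess co-detection without SGB3 (5.39 points) or by medians (4.86 points). No eosin library was left out of them. Depth is unknown, and with 10 libraries a window missed by all of them has a share bounded only at 30%.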
